A study of Mus musculus with 3 samples.

Results

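The DNA replication machinery was followed as 43 listed genes among the 54232 Ensembl genes counted in 3 RNA-seq libraries of cultured mouse cortical neurons. The genes were listed by function, and all 43 had an identifier in the count files. They fall into 9 roles and, across these roles, into 16 genes whose products also act in DNA repair and 27 genes that serve the chromosome duplication of dividing cells. Each group had 1 library, made from wildtype CD1 mouse cells labelled as cortical neurons. In the IKVAV PA + PEDOT-S group the neurons met a peptide amphiphile, a peptide that assembles into a soft scaffold, together with a component that the title calls PS2 and the library name PEDOT-S_OH, taken here to be the sulfonated conducting polymer PEDOT-S. In the IKVAV PA group they met the peptide amphiphile alone, which carries IKVAV, a short stretch of the matrix protein laminin. The PDL control group has an abbreviation that the labels do not expand. The treatment label names a peptide amphiphile for all 3 libraries, the control included, so titles and library names set the groups. The names of all 3 libraries hold T3, taken here as repeat 3, and no library of another repeat is among them. The labels give no age of the donor animals, no days in culture and no number of cultures behind a library.

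Before a cell divides, the origin recognition complex marks the places where copying will start, and Cdc6 and Cdt1 load the ring of Mcm2 to Mcm7 there. Cdc45 and the GINS complex turn that ring into the moving helicase, primase and polymerase alpha lay down primers, polymerases delta and epsilon extend them on the sliding clamp Pcna, and Fen1 and Lig1 join the pieces. Neurons have left the cell cycle, so in cortical cultures licensing genes are known as markers of progenitors and glia that still divide, whereas Pcna, the clamp loader and the delta polymerase also fill repaired gaps in non-dividing cells.

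Total counts were 79057998 in the IKVAV PA + PEDOT-S library, 124425958 in the IKVAV PA library and 78993105 in the PDL control library. Levels are given as CPM, a gene's counts relative to the library total after trimmed-mean scaling, and a gene entered the comparison with at least 1 CPM of the library total in at least 1 library, which 13884 genes did. A gene is called lower or higher here when its 95% counting interval lay wholly beyond 1.5-fold. With 1 library per group no statistical test between groups was possible, no p-value is given, and every difference describes these libraries without a replicate check. The intervals cover counting error only. Where a pair of values is given for the scaffold libraries, IKVAV PA + PEDOT-S stands before IKVAV PA. The scaling left the median log2 ratio of all genes compared at 0.01 between the scaffolds and at 0.00 in each comparison with PDL. The 10 neuronal markers listed, among them Rbfox3 and Map2, were all present, with summed levels of 10231, 10470 and 10228 CPM in the IKVAV PA + PEDOT-S, IKVAV PA and PDL control libraries.

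Most replication genes had ratios below no difference in both scaffold libraries against the PDL control library, 35 of the 43 with IKVAV PA + PEDOT-S and 36 with IKVAV PA. The genes called lower were Cdc6, 4 of the ring genes Mcm2 to Mcm7 and Mcm10, and the origin recognition complex summed to nearly the same level in all 3 libraries. The 43 genes together had 653 CPM in the IKVAV PA + PEDOT-S library and 639 CPM in the IKVAV PA library, against 743 CPM in the PDL control library. The log2 ratio of the sums to PDL was -0.19 with IKVAV PA + PEDOT-S (interval -0.20 to -0.17) and -0.22 with IKVAV PA (interval -0.23 to -0.20). In bulk RNA, fewer cells of a type and less RNA per cell cannot be told apart.

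Of the 40 members that passed the filter, 5 were called lower and none higher in the IKVAV PA + PEDOT-S library against PDL, where 3.76% of all genes compared were called lower and 0.447% higher. The 5 were Cdc6, Mcm3, Mcm4, Mcm5 and Mcm10. Against the same PDL library, 5 members were called lower and none higher in the IKVAV PA library, with 3.42% and 0.54% of all genes. Here they were Cdc6, Mcm2, Mcm3, Mcm5 and Mcm10. The 4 members called in both stand beside 2.68% of all genes, and both comparisons share the PDL library. By the weaker rule that the interval lies below no difference, 29 of the 40 lay below PDL with IKVAV PA + PEDOT-S, beside 28.5% of all genes, and 26 of the 40 with IKVAV PA, beside 28.9%. On GRCm38 the genes called lie at chr11:98907801-98923940 (Cdc6), chr6:88883474-88898780 (Mcm2), chr1:20802968-20820312 (Mcm3), chr16:15623897-15637400 (Mcm4), chr8:75109569-75128439 (Mcm5) and chr2:4989714-5012791 (Mcm10). The 3 members that missed the filter were Orc1, Pole2 and Fen1, each under 1 CPM in every library. Cdc6 passed only through the PDL control library, so its difference in direction was built into its passing.

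Summed marker levels of progenitors, astrocytes, meningeal fibroblasts and endothelial and mural cells were also lower in both scaffold libraries than in the PDL library. Between the scaffolds, IKVAV PA + PEDOT-S over IKVAV PA, the log2 ratio of the sums was 0.03 for the 43 replication genes. It was 0.17 for progenitor, 0.09 for astrocyte, -0.54 for meningeal fibroblast and -1.05 for endothelial and mural markers. The medians over the 10 markers of each list were 0.22, 0.41, -0.65 and -0.22 in that order, so the astrocyte sum hides a larger shift. Of the filtered markers, 2 of 9 astrocyte ones were called higher, beside 0.331% of all genes. Called lower were 1 of 8 meningeal fibroblast and 3 of 6 endothelial and mural markers, beside 2.02%, and no progenitor marker was called. The 10 progenitor markers summed to 241 and 214 CPM with IKVAV PA + PEDOT-S and IKVAV PA, against 398 CPM with PDL, and 3 of the 8 filtered were called lower in each comparison. The calls of this and the next lists stand beside 3.76% and 3.42% of all genes called lower against PDL. The shares called higher were 0.447% and 0.54%. The 10 astrocyte markers summed to 252 and 238 CPM, against 392 CPM, with 4 and 7 of the 9 filtered called lower, and 1 called higher with IKVAV PA + PEDOT-S. The 10 meningeal fibroblast markers summed to 104 and 151 CPM, against 197 CPM, with 7 and 3 of the 8 filtered called lower. The 10 endothelial and mural markers summed to 19.3 and 39.8 CPM, against 98.8 CPM, with 5 and 3 of the 6 filtered called lower. The 10 markers of the oligodendrocyte lineage summed to 103 and 80.1 CPM, against 109 CPM, with 4 called lower in each comparison and 4 and 2 called higher. The 10 microglia markers summed to 7.499, 6.84 and 6.63 CPM in the IKVAV PA + PEDOT-S, IKVAV PA and PDL libraries, with 2 of the 10 past the filter and none called. Itgam was at 0 in the IKVAV PA and PDL libraries, the only marker of these lists at 0 in any library. The part of these cell types in the differences of the replication genes was not tested.

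**Figure D1:**
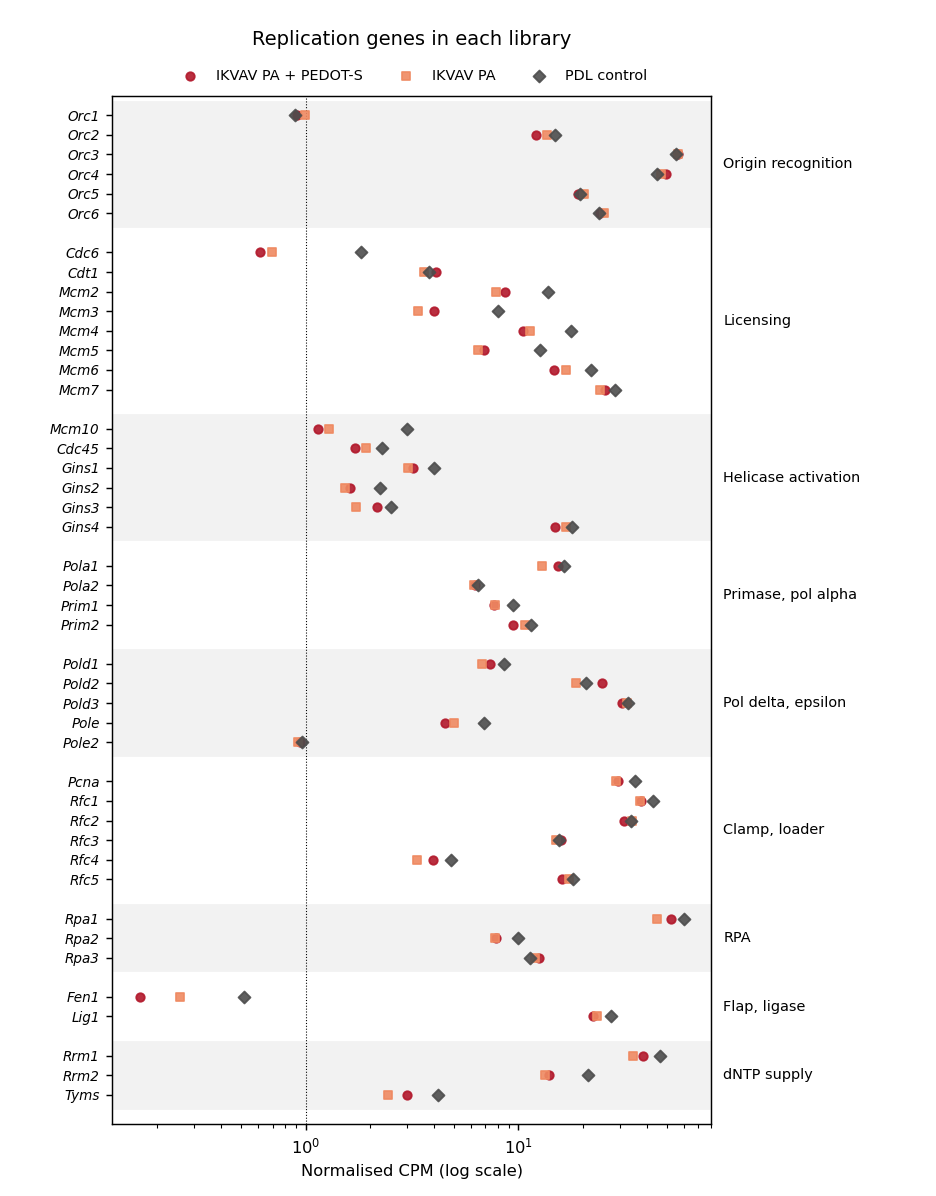
Normalised CPM (log axis) of the 43 replication genes in the IKVAV PA + PEDOT-S library (circles), the IKVAV PA library (squares) and the PDL control library (diamonds), 1 library each, by role, with a dotted line at 1 CPM. The PDL diamonds stand right of both scaffold symbols for Mcm2 to Mcm7, Mcm10 and Cdc6, and the symbols lie together for Orc3, Orc5 and Orc6.

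The origin recognition complex, the set of proteins that marks replication origins, had no member called. Its 6 genes summed to 162 CPM with IKVAV PA + PEDOT-S, 163 CPM with IKVAV PA and 159 CPM with PDL, so the log2 ratios against PDL were 0.02 and 0.04. Orc3 had 56.1 and 56.2 CPM in the scaffold libraries, against 54.9 CPM in the PDL library. Orc4 had 49.4 and 46.6 CPM, against 44.7 CPM with PDL, with intervals above no difference in both comparisons (0.08 to 0.21 and 0.00 to 0.12). Orc6, a subunit that binds the rest of the origin recognition complex only loosely in mammals, had 24.1 and 25.3 CPM, against 24.02 CPM with PDL. Per kilobase of exon the subunits were far from equal in the PDL library, at 9.73 CPM per kb for Orc6, 9.02 for Orc3, 5.99 for Orc4, 3.86 for Orc2, 3.17 for Orc5 and 0.26 for Orc1. Orc1, the ATPase subunit whose protein level changes over the cell cycle in mammals, was the rarest, with 71, 124 and 71 counts in the IKVAV PA + PEDOT-S, IKVAV PA and PDL libraries. Its value is uncertain too, since 10.8% of its exonic bases lie opposite Gm12743 on the other strand. Orc2 alone had an interval below no difference in both comparisons (log2 ratios -0.29 and -0.13), and 29.8% of its exonic bases lie opposite Nif3l1 on the other strand, so its value is uncertain.

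Of the 8 licensing genes, 4 were called lower in each comparison with PDL, beside 3.76% and 3.42% of all genes compared. Cdc6 is among the 4 each time, though it passed the filter only through the PDL library, which fixed its direction. Cdc6, the loader ATPase, had 0.61 CPM with IKVAV PA + PEDOT-S (48 counts) and 0.70 CPM with IKVAV PA (87 counts), against 1.82 CPM with PDL (145 counts). It was 2.97-fold lower with IKVAV PA + PEDOT-S (log2 ratio -1.57, interval -2.07 to -1.09) and 2.61-fold lower with IKVAV PA (-1.38, -1.78 to -0.99). Cdt1, its loading partner, had 4.11 and 3.61 CPM in the scaffold libraries, against 3.82 CPM with PDL, and its intervals of -0.12 to 0.34 and -0.29 to 0.13 include no difference.

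The 6 genes of the helicase ring, Mcm2 to Mcm7, all had ratios below no difference in both scaffold libraries against PDL, and 3 of the 6 were called lower in each comparison. The shares of all genes called lower were 3.76% and 3.42%. Their sum was 70.2 CPM with IKVAV PA + PEDOT-S and 69.9 CPM with IKVAV PA, against 102.5 CPM with PDL. The ring genes held 13.8% of the summed replication level in the PDL library and 35.7% of the summed difference of IKVAV PA + PEDOT-S from PDL, or 31.2% of that of IKVAV PA. Mcm3 stood lowest relative to PDL, at 4.01 CPM with IKVAV PA + PEDOT-S and 3.37 CPM with IKVAV PA, against 8.03 CPM with PDL. Its log2 ratios were -1.002 (interval -1.20 to -0.81) and -1.25 (interval -1.43 to -1.07). Mcm5 had 6.90 and 6.44 CPM in the scaffold libraries, against 12.6 CPM with PDL (log2 ratios -0.87 and -0.97).

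Mcm2, at 8.67 and 7.82 CPM in the scaffold libraries against 13.8 CPM with PDL, and Mcm4, at 10.5 and 11.4 CPM against 17.6 CPM, each passed the 1.5-fold bound in a single comparison. Their log2 ratios in IKVAV PA + PEDOT-S and IKVAV PA against PDL were -0.67 and -0.82 for Mcm2 and -0.75 and -0.63 for Mcm4, and the difference between the scaffolds was not called for either gene. Mcm6 (-0.58 and -0.40) and Mcm7 (-0.17 and -0.24) were the least different. Per kilobase of exon Mcm7 was also the highest of the ring, at 5.74 and 5.47 CPM per kb in the scaffold libraries and 6.44 in the PDL library, and Mcm2 the lowest with PDL at 1.99. Mcm7 shares 12.6% of its exonic bases with the genes Ap4m1 and Cops6 on the other strand and with the microRNAs Mir25 and Mir93 on its own, so its value is less certain than those of the other 5, which share none.

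The promoters of 4 licensing genes are shown, those lowest against PDL with IKVAV PA + PEDOT-S that hold an octamer known as a binding motif of the E2F factors, which drive replication genes at entry into S phase. The octamers searched were TTTCGCGC, TTTGGCGC, TTTCCCGC and TTTGCCGC on both strands, which can overlap each other, in RefSeq windows (GRCm38.p6) of 250 bases before to 50 after the annotated start. The windows run 5′ to 3′ along the gene with the octamers in capitals, at chr11:98907901-98908200 (plus strand) for Cdc6, chr1:20820263-20820562 (minus strand) for Mcm3, chr8:75109259-75109558 (plus strand) for Mcm5 and chr1:128359656-128359955 (minus strand) for Mcm6.
Cdc6: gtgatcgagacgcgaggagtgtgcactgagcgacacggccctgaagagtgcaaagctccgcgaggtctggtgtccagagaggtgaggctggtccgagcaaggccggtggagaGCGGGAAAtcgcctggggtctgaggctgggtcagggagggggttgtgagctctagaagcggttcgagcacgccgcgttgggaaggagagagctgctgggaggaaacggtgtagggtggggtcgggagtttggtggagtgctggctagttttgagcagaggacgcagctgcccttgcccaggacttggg
Mcm3: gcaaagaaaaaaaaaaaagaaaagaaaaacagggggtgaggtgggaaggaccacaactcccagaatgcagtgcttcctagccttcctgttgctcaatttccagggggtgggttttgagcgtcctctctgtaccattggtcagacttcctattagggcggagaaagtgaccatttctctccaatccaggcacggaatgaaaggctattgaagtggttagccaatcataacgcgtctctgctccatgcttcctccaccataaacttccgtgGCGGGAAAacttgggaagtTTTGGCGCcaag
Mcm5: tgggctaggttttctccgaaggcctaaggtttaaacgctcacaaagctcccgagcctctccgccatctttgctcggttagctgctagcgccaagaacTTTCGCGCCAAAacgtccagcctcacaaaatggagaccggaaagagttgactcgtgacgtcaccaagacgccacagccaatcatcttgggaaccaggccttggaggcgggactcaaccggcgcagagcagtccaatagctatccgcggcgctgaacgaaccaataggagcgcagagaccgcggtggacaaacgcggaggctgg
Mcm6: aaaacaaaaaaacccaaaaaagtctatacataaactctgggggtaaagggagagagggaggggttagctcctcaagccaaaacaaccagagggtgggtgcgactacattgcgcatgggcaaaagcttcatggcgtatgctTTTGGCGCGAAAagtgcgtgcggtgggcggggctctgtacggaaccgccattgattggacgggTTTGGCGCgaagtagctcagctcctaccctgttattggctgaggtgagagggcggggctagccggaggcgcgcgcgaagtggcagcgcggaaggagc

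The Cdc6 window held 1 such match, 138 bases before the RefSeq start, the Mcm3 window 2, both after the start, and the Mcm5 and Mcm6 windows 2 and 3, all before it. GENCODE starts Cdc6 further upstream than this RefSeq window, so by that annotation the match lies inside the gene. The direction of the windows was checked by looking for their last bases in the gene's GENCODE transcripts. These were found for Cdc6 and Mcm3 but not for Mcm5 and Mcm6. GENCODE starts Mcm5 after its window and Mcm6 close to the end of its window, so the check could not decide for them. A window was present for 36 of the 43 members, and 15 of these, or 41.7%, held an E2F octamer, beside 4.71% of the 10235 genes that passed the filter and had a window, and 2.26% of all 32851 windows. The median log2 ratios against PDL were -0.17 (IKVAV PA + PEDOT-S) and -0.24 (IKVAV PA) over the 15 with an octamer, and -0.26 and -0.28 over the 21 without. Cdt1, Orc1 and Orc3, whose intervals include no difference in both comparisons, also hold one, and Mcm2 and Mcm10, both called, hold none in their windows. Of the 5 called members with a window 3 hold an E2F octamer, as do 4 of the 5 ring genes with a window. A second motif, CCAAT on either strand, the box bound by NF-Y, was present in 23 of the 36, or 63.9%, beside 43.1% of the genes that passed the filter and had a window. The medians against PDL were -0.25 and -0.29 over these 23, and -0.16 and -0.08 over the 13 without. The cell cycle homology region TTTGAA of mitotic promoters was present on either strand in 5 of the 36, or 13.9%, beside 13.8%. Over these 5, Fen1 among them, the medians were -0.44 and -0.56, and over the 31 without they were -0.20 and -0.24. The part of any motif in the differences was not tested.

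Of the 6 helicase activation genes 1 was called lower, in both comparisons with PDL, beside 3.76% and 3.42% of all genes. A single call is not read as a result about the role. Mcm10, which helps to start the loaded helicase, had 1.15 CPM with IKVAV PA + PEDOT-S (90 counts) and 1.29 CPM with IKVAV PA (161 counts), against 3.00 CPM with PDL (239 counts). That was 2.61-fold lower (log2 ratio -1.38, interval -1.75 to -1.03) and 2.32-fold lower (-1.22, -1.51 to -0.92). Cdc45, the helicase cofactor, had 1.70 and 1.92 CPM in the scaffold libraries, against 2.30 CPM with PDL (log2 ratios -0.44 and -0.26, the second with an interval up to 0.03). The GINS subunits lay between -0.22 and -0.47 with IKVAV PA + PEDOT-S and between -0.10 and -0.56 with IKVAV PA, and none was called. Per kilobase of exon their levels were unequal, with Gins4 at 13.2 CPM per kb in the PDL library, against 2.65 for Gins1, 0.93 for Gins3 and 0.55 for Gins2. Gins2 shares 67.3% of its exonic bases with Gse1 on the other strand and is uncertain.

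The 4 primase and polymerase alpha genes all had negative ratios, and none was called. Prim1, the catalytic primase subunit, had 7.64 and 7.74 CPM in the scaffold libraries, against 9.39 CPM with PDL (log2 ratios -0.30 and -0.28). Pola1, the catalytic subunit of polymerase alpha, had 15.3 and 12.8 CPM, against 16.4 CPM with PDL (log2 ratios -0.10 and -0.35). Pola2 stood at -0.04 and -0.06, with intervals that include no difference.

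The 3 genes of nucleotide supply had intervals below no difference in both comparisons with PDL, and none was called. Rrm2, the ribonucleotide reductase subunit made in S phase, had 13.9 and 13.3 CPM in the scaffold libraries, against 21.1 CPM with PDL. Its log2 ratios were -0.60 (interval -0.71 to -0.49) and -0.67 (interval -0.76 to -0.57). Tyms, which makes thymidylate, had 2.99 and 2.43 CPM, against 4.21 CPM with PDL, with log2 ratios of -0.49 and -0.79. Its interval with IKVAV PA ran from -1.02 to -0.56, just short of 1.5-fold. Rrm1, the large reductase subunit, which also pairs with Rrm2b outside S phase, had 38.6 and 34.7 CPM in the scaffold libraries, against 46.2 CPM with PDL (log2 ratios -0.26 and -0.41).

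**Figure D2:**
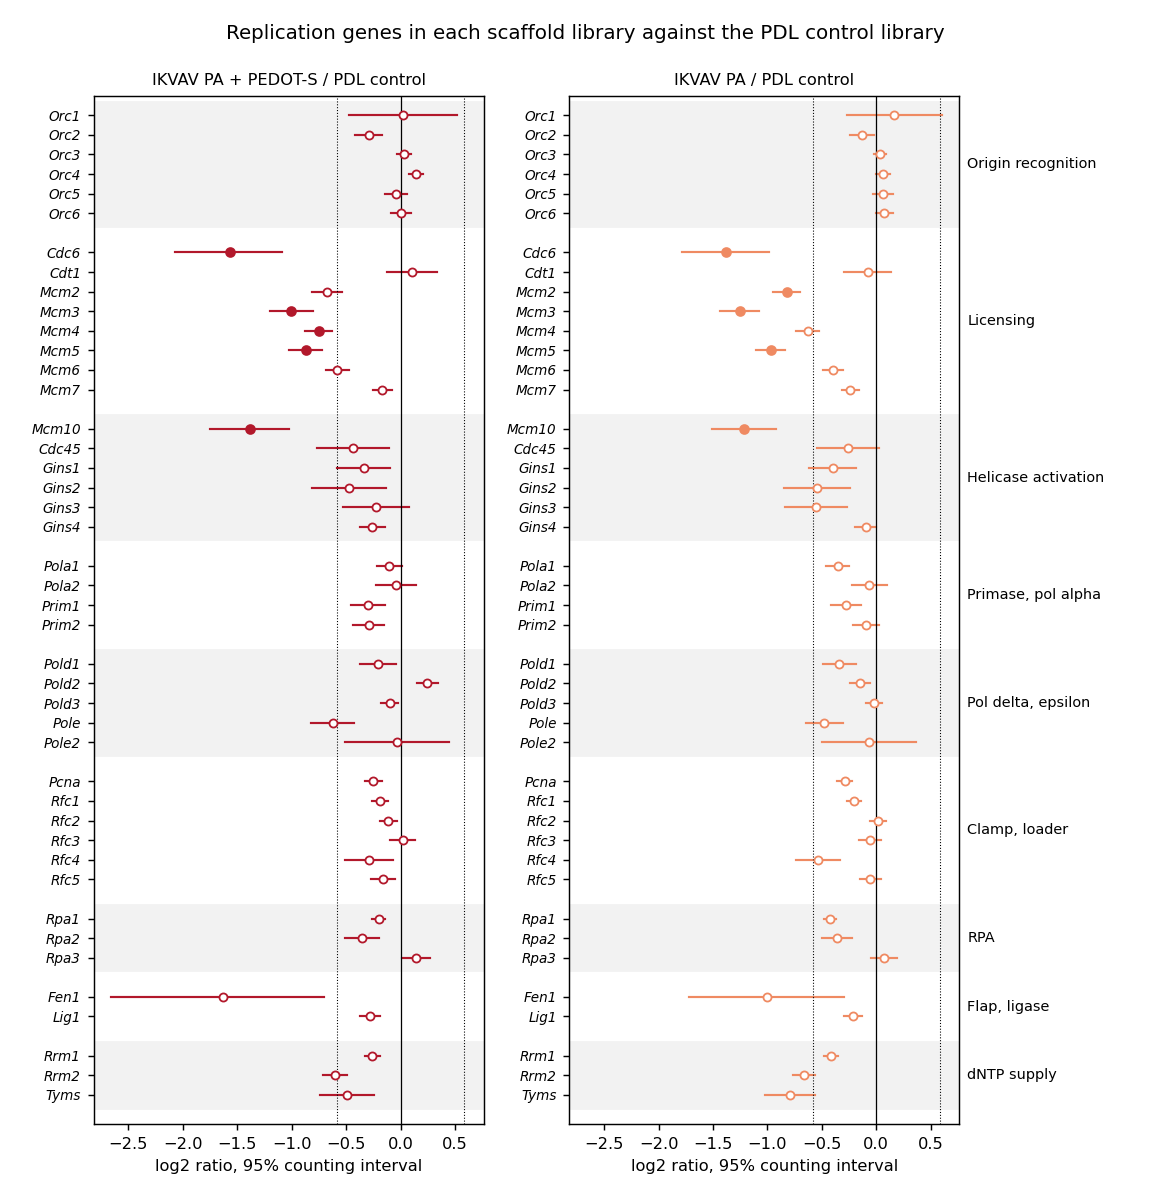
Log2 ratio (horizontal axis) of each replication gene in the IKVAV PA + PEDOT-S library (left) and the IKVAV PA library (right) against the same PDL control library, with 95% counting intervals; dotted lines mark 1.5-fold and filled points are called. Filled points appear only at Cdc6, Mcm2, Mcm3, Mcm4, Mcm5 and Mcm10, and origin recognition genes lie between -0.29 and 0.16.

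The members that also serve DNA repair were not called in either comparison with PDL, 0 of the 14 that passed the filter. With 3.76% and 3.42% of all genes called lower, a count of 0 in 14 is near the share of all genes and says nothing particular about them. The 16 summed to 298 CPM with IKVAV PA + PEDOT-S and 287 CPM with IKVAV PA, against 329 CPM with PDL (log2 ratios -0.15, interval -0.17 to -0.12, and -0.20, interval -0.22 to -0.17). With IKVAV PA + PEDOT-S 13 of the 16 ratios were negative, and with IKVAV PA 14 of the 16. Pcna, the sliding clamp, had 29.5 and 28.7 CPM in the scaffold libraries, against 35.1 CPM with PDL (log2 ratios -0.25 and -0.29). Of the clamp loader, Rfc1, its large subunit, stood at -0.19 and -0.21 and Rfc4 at -0.29 and -0.53, whereas Rfc3 had 15.8 and 15.0 CPM in the scaffold libraries, against 15.6 CPM with PDL. Rfc4 shares 12.7% of its exonic bases with Eif4a2, Rfc2 15.1% with Lat2 and Rfc5 10.7% with Wsb2, all on the other strand.

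Among the polymerases, Pole, the catalytic subunit of polymerase epsilon, was the furthest below PDL, at 4.50 and 4.97 CPM in the scaffold libraries against 6.92 CPM (log2 ratios -0.62, interval -0.82 to -0.43, and -0.48, interval -0.65 to -0.31). Its partner Pole2 had only 74, 115 and 77 counts in the IKVAV PA + PEDOT-S, IKVAV PA and PDL libraries, and its intervals include no difference. Pold1, the catalytic subunit of polymerase delta, stood at -0.21 and -0.34, Pold3 at -0.10 and -0.02, and Pold2 at 0.25 and -0.15. Of the single-strand binding complex RPA, Rpa1 had 52.3 and 44.6 CPM, against 60.0 CPM with PDL (log2 ratios -0.20 and -0.43), Rpa2 stood at -0.35 and -0.36, and Rpa3 at 0.14 and 0.07.

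Lig1, the ligase that seals Okazaki fragments, had 22.4 and 23.5 CPM in the scaffold libraries, against 27.2 CPM with PDL (log2 ratios -0.28 and -0.21). Fen1, the flap nuclease, had 13 counts with IKVAV PA + PEDOT-S and 32 with IKVAV PA, against 41 with PDL. These give log2 ratios of -1.63 (interval -2.66 to -0.70), beyond the bound though it missed the filter, and -1.003 (interval -1.72 to -0.30), but 78.8% of its exonic bases lie under the antisense gene Gm10143 and 5.37% under Tmem258, both on the other strand. Without a known strand setting, reads of such pairs cannot be told apart, and the low count of Fen1 cannot be read as its level.

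The 27 dividing-cell members had a median log2 ratio of -0.29 with IKVAV PA + PEDOT-S and -0.35 with IKVAV PA against PDL, and the 16 repair-shared members had medians of -0.19 and -0.21. All members called belong to the dividing-cell genes, 5 of the 26 that passed the filter in each comparison, Cdc6 among them. The shares of all genes were 3.76% and 3.42%, so 0 calls among 14 repair-shared genes do not set these apart. Intervals lay below no difference for 12 and 10 of the 16 repair-shared members, Fen1 included. For the dividing-cell members it was 18 and 17 of the 27, beside 28.5% and 28.9% of all genes compared. The order of the IKVAV PA medians depends on the split. With Rrm1, Rrm2 and Tyms moved to the repair-shared genes, the IKVAV PA medians turned to -0.27 for the dividing-cell genes and -0.29 for the repair-shared genes, in the other order. The IKVAV PA + PEDOT-S medians kept theirs, at -0.29 and -0.21. Without the 4 subunits Orc2 to Orc5 the median of the dividing-cell genes was -0.34 with IKVAV PA + PEDOT-S and -0.40 with IKVAV PA.

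The level of a member went along with its ratio. The 12 members with a mean of at least 20 CPM, Orc3, Orc4, Pcna and Rpa1 among them, had ratios between -0.28 and 0.25 with IKVAV PA + PEDOT-S and between -0.43 and 0.08 with IKVAV PA, and none was called. The 31 below 20 CPM had medians of -0.30 and -0.36 and held every member called. Over the 40 members that passed the filter, Spearman's rho between mean CPM and the ratio to PDL was 0.55 with IKVAV PA + PEDOT-S and 0.55 with IKVAV PA. The points share the same 3 libraries and the PDL counts enter both measures, so this is a description only. Exonic length did not go along with the ratio (rho -0.04 and -0.04).

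**Figure D3:**
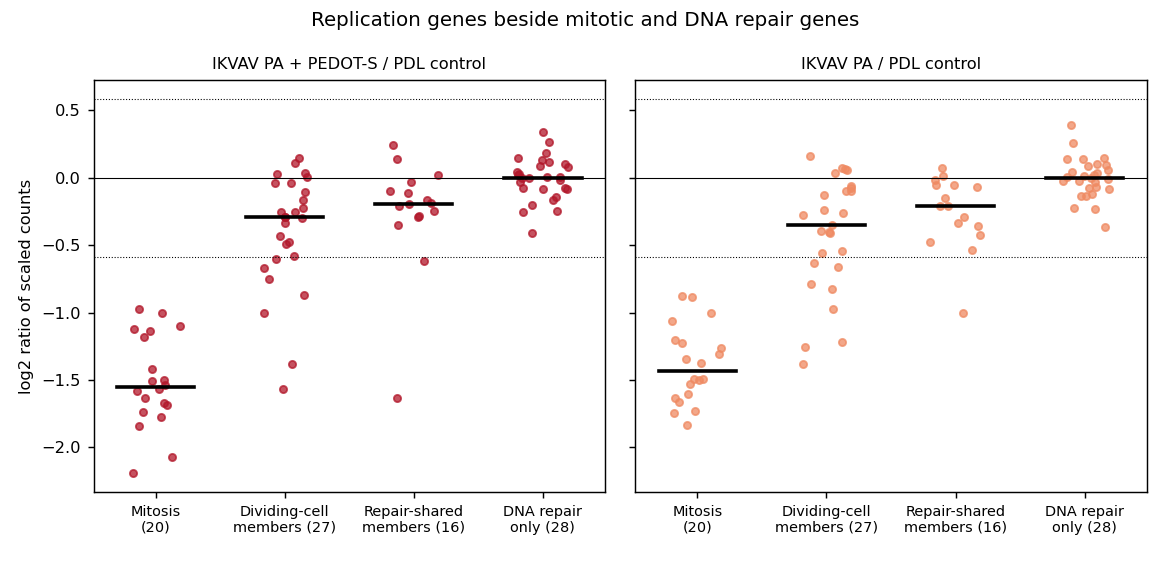
Log2 ratio (vertical axis) against the PDL control library for the IKVAV PA + PEDOT-S library (left) and the IKVAV PA library (right), 1 point per gene, bars at medians, dotted lines at 1.5-fold. Mitotic genes have medians of -1.55 and -1.43, dividing-cell replication genes reach from 0.14 to -1.57 (left) and from 0.16 to -1.38 (right), and DNA repair genes centre on 0.00.

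All 20 mitotic genes listed were called lower in each comparison with PDL, with medians of -1.55 (IKVAV PA + PEDOT-S) and -1.43 (IKVAV PA). Top2a, the topoisomerase that untangles copied chromosomes, had 12.2 and 12.5 CPM in the scaffold libraries, against 37.8 CPM with PDL. The mitotic list summed to 81.7 CPM with IKVAV PA + PEDOT-S and 85.7 CPM with IKVAV PA, against 231 CPM with PDL. Of the 27 filtered genes of DNA repair outside replication 0 were called in either comparison with PDL, also near the 3.76% and 3.42% of all genes, and the medians over the 28 listed were both 0.00. Polb, the gap-filling polymerase of base excision repair, stood at 0.01 and 0.14, Parp1, which senses strand breaks, at -0.00 and -0.08, and Xrcc1, a scaffold of single-strand break repair, at -0.25 and -0.03.

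Of the 26 filtered accessory genes of firing and fork protection, 1 was called lower with IKVAV PA + PEDOT-S and 2 with IKVAV PA against PDL, beside 3.76% and 3.42% of all genes, and none higher. These few calls are not read as a result about the list (medians over 27 of -0.10 and -0.13). Clspn, a checkpoint mediator at the fork, had 1.39 and 1.22 CPM in the scaffold libraries, against 3.97 CPM with PDL (log2 ratios -1.51 and -1.70). Gmnn, the inhibitor of Cdt1, stood at -0.74 and -1.07 and was called with IKVAV PA only. The kinase Cdc7 and its activator Dbf4, which fire licensed origins, were not called, with Dbf4 at -0.05 and -0.20 and Cdc7 at -0.31 and 0.13. Of 13 chromatin genes that act behind the fork, Uhrf1, which guides maintenance methylation, was called lower in both (3.77 and 3.85 CPM, against 11.9 CPM with PDL). Asf1b, a histone chaperone, was called with IKVAV PA + PEDOT-S only (-1.11, and -0.91 with IKVAV PA), and like Cdc6 it passed the filter only through the PDL library.

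Among other genes of nucleotide supply, Tk1, the thymidine kinase of S phase, was called lower against PDL with IKVAV PA + PEDOT-S (log2 ratio -1.24) and was not called with IKVAV PA (-0.28). It was not typical of its list, in which 6 of 11 ratios to PDL with IKVAV PA + PEDOT-S lay above no difference and the medians were 0.03 and -0.07. Rrm2b, the reductase subunit used outside S phase, had 18.9 and 18.2 CPM in the scaffold libraries, against 18.2 CPM with PDL. Against PDL, 3.76% of all genes compared were called lower and 0.447% higher with IKVAV PA + PEDOT-S, and 3.42% and 0.54% with IKVAV PA. Of 20 genes that control entry into S phase, 7 were called lower and 1 higher with IKVAV PA + PEDOT-S, and 6 lower and none higher with IKVAV PA (medians -0.20 and -0.39). Cdkn2c, an inhibitor of Cdk4 and Cdk6, was the lowest of them with IKVAV PA + PEDOT-S (-1.89, and -1.65 with IKVAV PA), followed there by Ccnd1, cyclin D1 (-1.82, and -0.95 with IKVAV PA), with 23.4% of its exonic bases shared. E2f8, a late E2F factor, stood at -1.44 and -1.38 but passed the filter only through the PDL library. E2f1 had 15.6 and 12.8 CPM, against 11.9 CPM with PDL. The 1 higher gene was Cdkn1c, an inhibitor of cyclin kinases (0.87, and 0.11 with IKVAV PA), with 30.7% of its exonic bases shared.

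Between the scaffolds no member was called, 0 of 40 in either direction, where 2.02% of all genes were called lower and 0.331% higher in the IKVAV PA + PEDOT-S library. The median log2 ratio was 0.02 over the dividing-cell genes and 0.03 over the repair-shared genes, and the ring genes Mcm2 to Mcm7 summed to 70.2 CPM with IKVAV PA + PEDOT-S and 69.9 CPM with IKVAV PA. The highest ratio was that of Pold2, a small subunit of polymerase delta, at 24.6 CPM with IKVAV PA + PEDOT-S and 18.7 CPM with IKVAV PA (0.39, interval 0.31 to 0.48). Rpa1 (0.23), Pola1 (0.25), Rrm1 (0.16) and Tyms (0.30) also had intervals above no difference, and Mcm6 (-0.18), Gins4 (-0.16) and Prim2 (-0.20) intervals below it. In all, 10 of the 40 lay above and 8 below by that rule, beside 31.4% and 28.5% of all genes. Outside the members, Tk1 was called lower with IKVAV PA + PEDOT-S (1.46 CPM, against 2.83 CPM with IKVAV PA, log2 ratio -0.96), as was Ccnd1 (-0.88), and Cdkn1c was called higher (0.75).

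**Figure D4:**
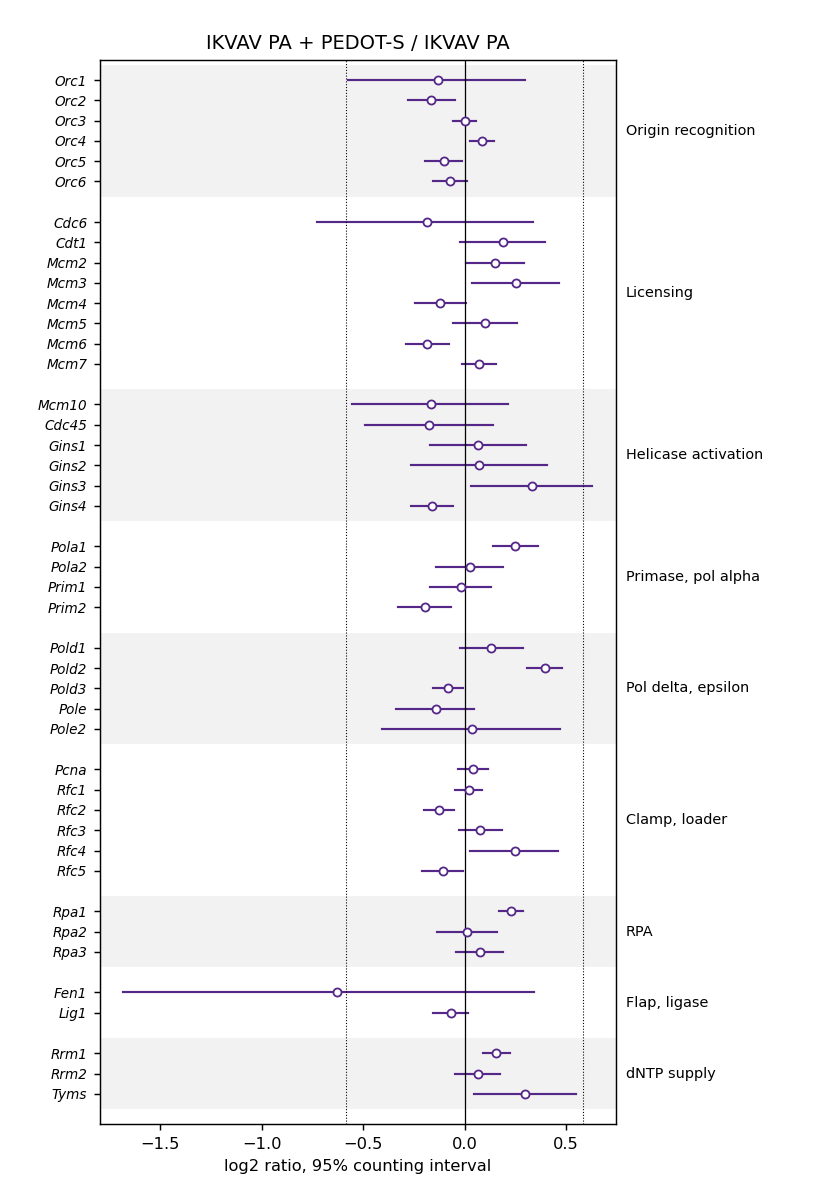
Log2 ratio (horizontal axis) of each replication gene in the IKVAV PA + PEDOT-S library over the IKVAV PA library, 1 library each, with 95% counting intervals and dotted lines at 1.5-fold. No point is filled, since none was called, and Pold2 lies furthest to the right at 0.39.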

How the data were processed

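RNA-seq gene counts of 3 libraries, 1 per group, were used. Per the labels' protocols RNA came from an RNeasy micro kit and library preparation used the TruSeq Total RNA chemistry, while the molecule label reads polyA RNA. The deposited values are raw whole-number counts per Ensembl gene. The submitters' processing notes name cutadapt 4.2, STAR 2.7.5, HTSeq 2.0.2, DESeq2 1.14.1 and mm10, while no source used here gives the strand setting, filters or annotation release. Symbols, exons and shared exonic bases came from GENCODE M21 (GRCm38), which annotated 54165 of 54232 identifiers. Genes with over 10% of exonic bases shared are called uncertain. Genes kept had at least 1 CPM in at least 1 library (13884), and trimmed-mean factors from edgeR 4.0.16 (R 4.3.3) on these were 0.990, 1.00 and 1.01 for IKVAV PA + PEDOT-S, IKVAV PA and PDL. Ratios of scaled counts carry exact (Clopper-Pearson) 95% binomial intervals (scipy 1.17.1). No source used here names molecular identifiers, so PCR copies may be counted and intervals cover counting error only. List medians and sums are over all listed members, and calls are counted over those that passed the filter.

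The members and lists were chosen with earlier results of these data known. Any of the 43 members may be named. Of each other list, the named genes are the 3 lowest and 3 highest by ratio of IKVAV PA + PEDOT-S to PDL, plus 12 fixed genes. The split at 20 CPM was chosen after seeing the data. The promoters printed are the 4 lowest members with an E2F octamer and at least 200 counts in all. The procedure was tested on simulated Poisson counts, which hold counting error only. That test cannot show how often cultures of the same group would differ enough to be called. The alternatives tried were scaling by DESeq2 1.42.0 or by totals alone, other filters and bounds, thinned libraries, no shared exons and other splits of the members. Part of the list of other nucleotide supply genes is not reported here.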

Additional observations from a re-analysis of the deposited data

How the results depend on the processing

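Of the recomputed counts and medians, 85 stayed within 1.5 times (counts) or within the median bounds of the members' counting intervals (medians), and 8 counts moved. All 65 recomputed ratios of members beyond the bound stayed within their counting intervals. Other filters and removal of genes with shared exons cannot change a gene's own ratio, so their agreement was fixed in advance. The same holds for the medians without a filter. Only size factors from DESeq2, total counts and thinning could move a ratio, and only by little. Size factors and totals shift every ratio of a comparison by the same amount. Mcm4 with IKVAV PA + PEDOT-S against PDL, at -0.75 (interval -0.88 to -0.63), became -0.73 and -0.78. Thinning left it at -0.75, since the totals of those libraries are nearly equal. The agreement of the ratios was therefore largely fixed in advance here too. Removal of genes with shared exons leaves out Fen1 and so was not run on it. The dividing-cell median between the scaffolds, 0.02, became -0.01 with Rrm1, Rrm2 and Tyms moved to the repair-shared genes. With a 2-fold bound 2 members were lower in IKVAV PA + PEDOT-S and 1 in IKVAV PA against PDL, since fewer intervals lie beyond it. With the bound at no difference 29 were lower and 3 higher in IKVAV PA + PEDOT-S, 26 lower and 1 higher in IKVAV PA against PDL, and 8 lower and 10 higher between the scaffolds. No paired analysis was possible because each group has 1 library. Depth limits Cdc6, Mcm10, Orc1, Pole2 and Fen1 most, and differences of these sizes between cultures of 1 group could not be measured.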
